A study of Homo sapiens with 9 samples.

Results

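The 368 genes described here end in long 3' intervals of 5000 bases or more. In each of them, all rows of the deposited table shared 1 interval length, and the gene reached a mean of at least 2 CPM (reads scaled to the size of the library) over the 3 libraries without 4sU. They were 368 of 7296 genes with 1 interval length at that level, and of 26869 genes in 56868 rows. The interval is the stretch assigned to the 3' end of a transcript over which reads were counted. Of the 368, 348 belonged to coding transcripts and 20 to noncoding ones. Noncoding transcripts have no 3' untranslated region, and their intervals were matched to exons. The members were selected on their length and on the CPM without 4sU, so these values are given as a description. Another 248 genes had an interval of this length among several lengths and so were not eligible. They were counted at any read level, at which 559 genes with 1 interval length had one of 5000 bases or more.

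The long 3' untranslated region of an mRNA holds binding sites for microRNAs and for RNA-binding proteins, among them AU-rich elements and Pumilio sites, and so is known as a place where the stability and translation of an mRNA are set. Genes with long 3' ends often hold several poly(A) signals, and the choice among these signals decides how much of the region a transcript carries. In SLAM-Seq, 4-thiouridine (4sU) enters the RNA made during a pulse, iodoacetamide alkylates it, and the base is then read as C in place of T. A T>C conversion rate therefore depends on the share of a gene's RNA that was made during the pulse.

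The libraries came from MCF10A, an established line of human mammary epithelial cells. All cells were JUN KO, so all groups lacked endogenous JUN protein. They carried a JUN protein fused to an auxin-inducible degron (JUN-AID) and TIR1, the plant receptor that marks such a fusion for degradation. Both came from viral expression vectors (JUN-AID under the EF1a promoter). The 3 groups had 3 replicates each: no 4sU, DMSO with 100 µM 4sU for 1 h, and 100 µM IAA (indole-3-acetic acid), which degrades JUN-AID, with the same 4sU pulse. The 3 columns of IAA were identical in all 56868 rows and were counted as 1 library, so no comparison with IAA has a test.

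Library totals lay between 18997637 and 24014195 reads. KRT5 was read at 519 to 709 CPM and EPCAM at 112 to 156 CPM, and PTPRC, CD3E and VWF were listed at 0 in every library, although KRT14, another basal keratin, reached only 3.63 to 10.6 CPM and COL1A1, a fibroblast collagen, 3.21 to 9.82 CPM. JUN RNA lay between 45.0 and 57.6 CPM without 4sU and between 20.3 and 30.2 CPM in the DMSO libraries. It was at 62.9 CPM in the IAA library, which does not check the degradation of the protein. Reads of the mutated JUN gene and of the vector were not told apart. The study describes its replicates as biological ones, and p-values measure the spread between these libraries.

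The long intervals had a median length of 6172.5 bases, with a range of 5000 to 91671 bases and 24 members of 10000 bases or more. The shorter intervals of the other 6928 genes had a median of 1073 bases. The median read level without 4sU was 26.4 CPM for the long intervals and 16.4 CPM for the shorter ones. NFYA at 5000, PLXNA2 at 5003 and KCTD12 at 5005 bases lay just inside the length limit, and GSPT1 at 4994 and SMCR8 and PPM1K at 4989 bases just outside. At the CPM limit, OTUD3 with 2.10, NIPBL-DT with 2.17 and PRKXP1 with 2.34 CPM were members, whereas PAG1 with 1.98, KIAA1549L with 1.97 and REPS2 with 1.95 CPM were not.

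An interval of the GENCODE annotation of GRCh37 with a length within 20 bases was found for 327 members (88.9%), for 169 of them with exactly the same length. Composition was taken over the whole interval, and the part of it that the reads covered was not given. T, the base in which conversions are counted, had a median of 32.0% in the long intervals. It was 30.3% in all shorter intervals and 31.4% in those of 1000 to 5000 bases. Median GC content was 39.0% against 41.9% and 40.0%. ATTTA, the core of the AU-rich element, occurred on the transcribed strand in 100% of the long intervals. It occurred in 70.4% of all shorter intervals and in 91.9% of those of 1000 to 5000 bases, which hold fewer bases. Its median was 2.36 per 1000 bases in the long intervals, against 1.68 in all shorter ones and 2.14 in those of 1000 to 5000 bases. The Pumilio motif TGTANATA, searched like AATAAA and ATTAAA on the transcribed strand alone, was present in 68.8% of the long intervals against 26.1% and 38.9%, which are windows of shorter length. The poly(A) signal AATAAA occurred at a median of 6 places in a long interval and of 2 in an interval of 1000 to 5000 bases. Per 1000 bases its median was lower in the long intervals, at 0.886. It was 0.966 in those of 1000 to 5000 bases and 1.39 in all shorter ones. AATAAA or ATTAAA lay within the last 50 bases in 89.6% of the long intervals and in 83.7% of the shorter ones. Most members therefore ended, by annotation, at a place with a poly(A) signal, and many carried further copies upstream.

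The windows of 30 bases around this last signal are shown for 4 members with a high and 3 with a low T>C rate. The libraries of this assay were made from the 3' ends of mRNAs. Sequences are from GRCh37, 5′ to 3′ on the transcribed strand, with the signal in capitals.
YOD1, chr1:207217196-207217225, minus strand: ttgtttcaaaggAATAAAtgaagtgaaaac
RTL10, chr22:19833672-19833701, minus strand: atatgagcaagaAATAAAtttttgatgtgc
LSM11, chr5:157187684-157187713, plus strand: tctgaaaactgtAATAAActgtattcatat
ZNF264, chr19:57734181-57734210, plus strand: agataacttgtgATTAAAgagtatgttatt
NXPE3, chr3:101547042-101547071, plus strand: atctgatattttATTAAAatatcttaaatg
USP13, chr3:179507158-179507187, plus strand: caattgttttaaATTAAAagctattctcac
AK4, chr1:65697785-65697814, plus strand: caatttgatagaAATAAAgtttttttctgc
Both kinds of signal occurred among the members with a high rate and among those with a low rate. The 4 intervals with a high rate were annotated as 3' ends at chr1:207217194-207222367, chr22:19833661-19838692, chr5:157182270-157187717 and chr19:57724347-57734214. The 3 with a low rate lay at chr3:101540796-101547075, chr3:179501927-179507189 and chr1:65691858-65697828.

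The first comparison asked which long intervals gained T>C conversions with 4sU. The T>C rate was higher in the DMSO libraries than without 4sU for 236 of the 368 members (64.1%) and lower for 0 (limma on log2 of the rate plus 0.0005, Benjamini-Hochberg adjusted p under 0.05 over all 10626 genes tested). Among all genes tested, 47.7% were called higher and 0.0471% lower, and among the 6928 genes with shorter intervals 50.0% were higher. At an unadjusted p under 0.05, 0 members were lower as well. The median log2 change was 1.39 for the long intervals and 1.24 for the shorter ones. For 277 members (75.3%), each DMSO library lay above each library without 4sU, which held for 61.9% of all genes tested. Without replicate 1, 2 or 3 of both groups, 84, 104 and 103 members were called, or 22.8%, 28.3% and 28.0%, where the shares of all genes tested were 18.1%, 23.1% and 22.1%. With each library centred on its median rate, so that a change is relative to the bulk of genes, 24 members (6.52%) were higher and 7 (1.90%) lower. By this measure 7.83% of all genes tested were higher and 2.08% lower, and 8.43% of the shorter intervals were higher, so the order of long and shorter intervals turned.

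The share of members called grew with the reads behind them. In the band of 2 to 5 CPM, with a median of 69.0 reads per DMSO library, 12 of 36 members (33.3%) were higher, against 31.9% of the shorter intervals in the band. From 5 to 10 CPM it was 26 of 50 (52.0%) against 42.7%, and from 10 to 20 CPM 39 of 64 (60.9%) against 49.2%. From 20 to 50 CPM 83 of 119 members (69.7%) were higher against 59.3%, and at 50 CPM or more, with a median of 1849 reads, 76 of 99 (76.8%) against 60.8%. The spread of a member over the DMSO libraries fell in the same order, from a median SD of 1.34 log2 units in the lowest band to 0.28 in the highest. The median SD of the shorter intervals went from 1.13 to 0.26. The number of T positions read was not given, so a rate carries no counting interval.

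The second comparison set the level of the rate in each library beside that of shorter intervals at the same read level, by weighting the medians of 5 CPM bands to the members' numbers. The long intervals had a rate of 0.334%, 0.251% and 0.235% in the 3 DMSO libraries, and the shorter intervals 0.267%, 0.200% and 0.197%. In the IAA library the rates were 0.285% and 0.244%. Without 4sU they were 0.0519%, 0.0596% and 0.0639% for the long intervals and 0.0504%, 0.0509% and 0.0527% for the shorter ones. The long intervals thus lay higher in all 7 libraries, by 0.0516 ± 0.0150 percentage points with DMSO and 4sU (SD, n = 3), by 0.0409 points with IAA, and by 0.00711 ± 0.00505 points without 4sU (SD, n = 3). The difference was larger in each of the 4 labelled libraries than in each of the 3 unlabelled ones (two-sided exact permutation test, p = 0.0571, which is the smallest that 4 libraries against 3 can give). As a ratio, the long intervals lay 1.23 ± 0.0360 times as high with DMSO and 4sU (SD, n = 3) and 1.14 ± 0.0960 times without 4sU (SD, n = 3), and the ratios of labelled and unlabelled libraries overlapped (p = 0.286 in the same exact test). With the mean in place of the median, the sign turned, and the difference of long from shorter intervals in the DMSO libraries was -0.0197 points.

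**Figure D1:**
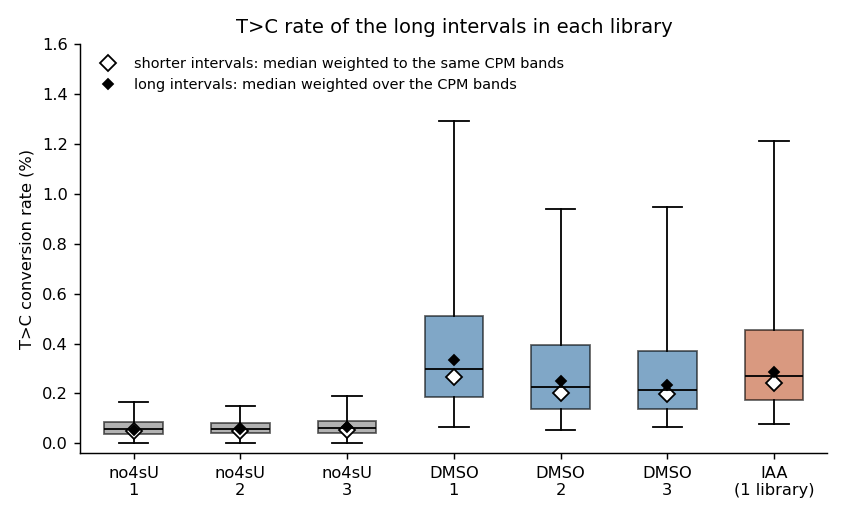
T>C conversion rate in percent (vertical axis) of the long intervals in each of the 7 libraries (horizontal axis). Boxes give the quartiles with the median as a line and whiskers the 5th and 95th percentiles; filled and open diamonds give the medians of long and shorter intervals weighted over the same CPM bands. All 4 labelled libraries lie above the 3 without 4sU, and the filled diamonds lie above the open ones, for example at 0.334% against 0.267% in DMSO replicate 1.

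Much of this difference followed length among the shorter intervals too. Weighted to the same CPM bands, the mean rate of the 3 DMSO libraries was 0.177% for intervals under 500 bases, 0.219% from 500 to 1000, 0.236% from 1000 to 2000, 0.268% from 2000 to 5000 and 0.273% for the long intervals. The last 2 classes were not in the same order in every library: the long intervals were higher in DMSO replicates 1 and 2 (0.334% against 0.325%, 0.251% against 0.242%) and lower in DMSO replicate 3 (0.235% against 0.237%) and in the IAA library (0.285% against 0.294%). Against intervals of 1000 to 5000 bases alone, the excess in the DMSO libraries was 0.0212 percentage points. Across the members themselves, length and rate were not ordered together (Spearman's rho 0.01 over 368 members, which share libraries), and across the 6928 shorter intervals rho was 0.17. The 24 members of 10000 bases or more had a median rate of 0.222%, the 179 from 6000 to 10000 bases 0.280% and the 165 from 5000 to 6000 bases 0.250%. The long intervals thus differed from those of 2000 to 5000 bases by less than from each shorter class.

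**Figure D2:**
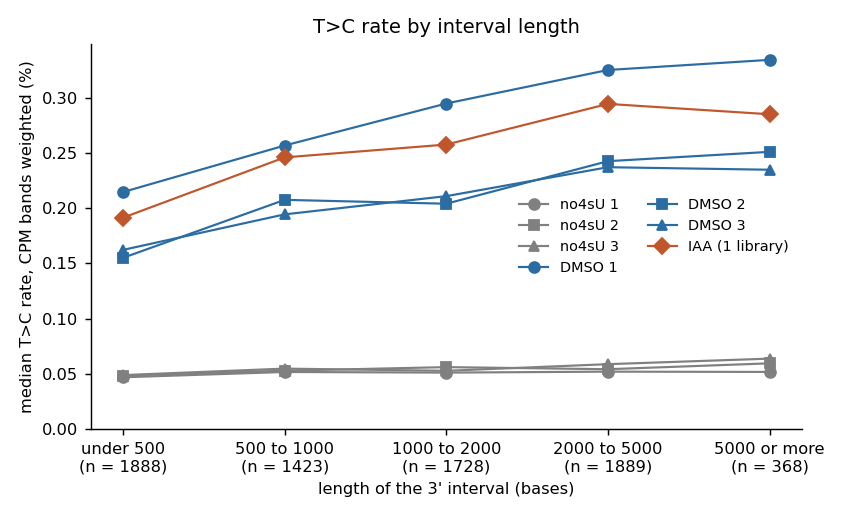
Median T>C rate in percent, weighted over the CPM bands of the long intervals (vertical axis), by class of interval length in bases with the number of genes (horizontal axis), 1 line per library. The labelled libraries are lowest in the shortest class and differ little between the last 2 classes, while the libraries without 4sU stay between 0.0470% and 0.0639%.

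Rate and composition were described over the 327 members with a matched sequence. The 109 members with the fewest ATTTA per 1000 bases had a median DMSO rate of 0.323%, the 109 in the middle 0.265% and the 109 with the most 0.235% (rho -0.17). For T content the medians were 0.303%, 0.265% and 0.261% from the lowest to the highest (rho -0.12). The members richest in T were thus not those with the highest rates. The rate is a share of the T positions read, whereas composition was taken over the whole interval, and these members share their libraries.

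Rates of single long intervals spanned a wide range. The mean rate of the DMSO libraries was 1% or more for 18 members, under 0.1% for 19 and in between for 331, with quartiles at 0.171% and 0.390%. Rate fell with read level (rho -0.32 over the members and -0.25 over the shorter intervals).

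**Figure D3:**
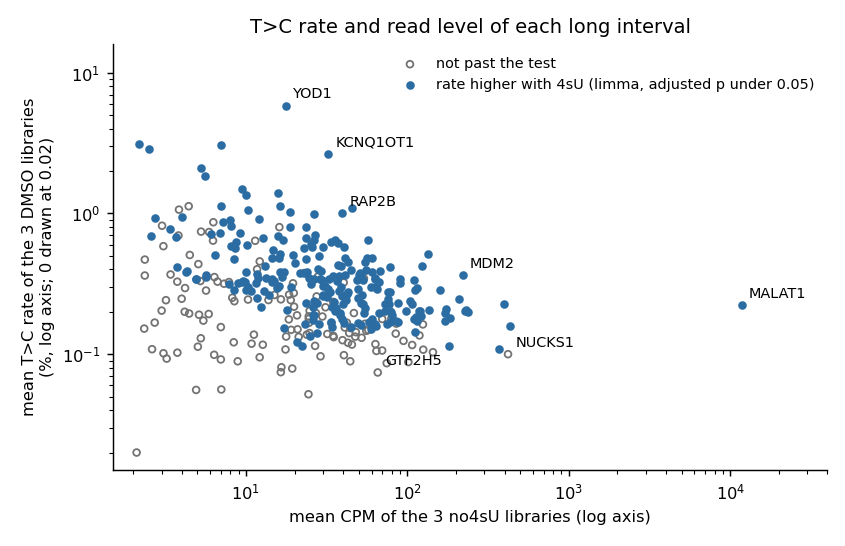
Mean T>C rate of the 3 DMSO libraries in percent (vertical axis) against the mean CPM of the 3 libraries without 4sU (horizontal axis), both on log axes, 1 point per long interval. Filled points passed the limma test as higher with 4sU; YOD1 stands at the top with 5.84%, KCNQ1OT1 lies at 2.65%, and MALAT1 stands far to the right with 11779 CPM.

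Among members of 10 CPM or more, YOD1 had the highest rate. It encodes a deubiquitinase of the OTU family. Its rate was 0.0396%, 0.0151% and 0.0229% without 4sU, 6.62%, 6.35% and 4.55% in the DMSO libraries, and 5.15% with IAA. All labelled values lay far above all unlabelled ones (log2 change 6.27 ± 0.29 SE, adjusted p = 0.000506 by limma). YOD1 took place 14 among 4804 genes with 1 interval length and at least 10 CPM. KCNQ1OT1, the unspliced nuclear noncoding RNA of an imprinted cluster and the longest interval with 91671 bases, followed. It had 0.264%, 0.156% and 0.117% without 4sU, 2.59%, 2.75% and 2.60% with DMSO and 4sU, and 2.15% with IAA (log2 change 3.61 ± 0.32 SE, adjusted p = 0.00138 by limma). The 3 DMSO libraries were close to each other, and the IAA library lay below them.

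LINC01004, a noncoding RNA, had 0.0424%, 0.0646% and 0.0909% without 4sU and 2.90%, 0.630% and 0.647% with DMSO and 4sU, on only 40, 24 and 15 reads. RTL10, a gene derived from a retrotransposon, reached 0.939%, 1.29% and 1.17% with DMSO and 4sU against at most 0.239% without. EPM2AIP1, whose protein binds laforin, reached 1.35%, 0.956% and 0.949% against at most 0.247%. In each of these 3 genes all labelled libraries lay above all unlabelled ones. LSM11, a part of the U7 particle that forms the 3' ends of histone mRNAs, had 1.47%, 1.10% and 0.600%. ZNF264, a zinc finger protein, had 1.33%, 0.716% and 1.02%, and RAP2B, a small GTPase of the Ras family, 1.35%, 0.623% and 1.04%. Their rates without 4sU were at most 0.134%, 0.108% and 0.0785%, and each of the 8 genes passed the test with an adjusted p of 0.0103 or less by limma. These 8 genes were picked by their DMSO rates, which the test also uses, so passing it is no further support.

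At the other end, 6 members of 10 CPM or more had the lowest mean DMSO rates and none of them passed the test. They were picked by these rates, which the test also uses, so this outcome is a description only. FECH, the ferrochelatase of heme synthesis, had 0.0318%, 0.0639% and 0.0443% without 4sU and 0.0657%, 0.0530% and 0.0370% with DMSO and 4sU, on 549 to 673 reads in the DMSO libraries. The groups overlapped (log2 change 0.08 ± 0.29 SE, adjusted p = 0.826 by limma). GTF2H5, a subunit of TFIIH, had 0.0366%, 0.0508% and 0.0338% without and 0.0569%, 0.0618% and 0.104% with 4sU (adjusted p = 0.223 by limma). These groups did not overlap, on 1315 to 2164 reads in the DMSO libraries, but the change of 0.44 ± 0.28 SE on the log2 scale was small. USP13, a deubiquitinase, EIF4E3, a cap-binding protein, and NXPE3 overlapped between the groups, as did AK4, an adenylate kinase of mitochondria, with 0.0769%, 0.0660% and 0.0567% without and 0.109%, 0.0867% and 0.0637% with 4sU. Of these 14 genes, AK4 had the most reads in each DMSO library, 1828 to 2202, and LINC01004 the fewest, 15 to 40. In the IAA library, which was also labelled, FECH had 0.131%, GTF2H5 0.108%, USP13 0.141%, EIF4E3 0.185%, NXPE3 0.245% and AK4 0.104%. Each of these IAA values lay above all values of its gene without 4sU. All but that of AK4 also lay above the DMSO values.

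The 6 members with the most reads had mean DMSO rates from 0.100% in NUCKS1 to 0.227% in ENAH, under the median of all members, 0.265%. The median of the members at 50 CPM or more was 0.203%. MALAT1, a nuclear noncoding RNA, had 11067 to 12566 CPM without 4sU and a rate of 0.0552%, 0.0519% and 0.0483%, which was 0.245%, 0.220% and 0.201% with DMSO and 4sU and 0.232% with IAA (log2 change 1.42 ± 0.20 SE, adjusted p = 0.00428 by limma). CD59, which blocks the complement attack complex, had 0.187%, 0.126% and 0.160% with DMSO and 4sU. ENAH, an actin regulator, had 0.296%, 0.187% and 0.197%. PTPN14, a phosphatase that restrains YAP, had 0.267%, 0.148% and 0.185%. SERBP1, an mRNA-binding protein, was lower still, with 0.105%, 0.109% and 0.115% against 0.0482%, 0.0546% and 0.0575% (adjusted p = 0.0440 by limma). NUCKS1, a chromatin protein, had 0.119%, 0.0947% and 0.0857% against 0.0450% to 0.0538% and missed the threshold (adjusted p = 0.0685 by limma) although its groups did not overlap.

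**Figure D4:**
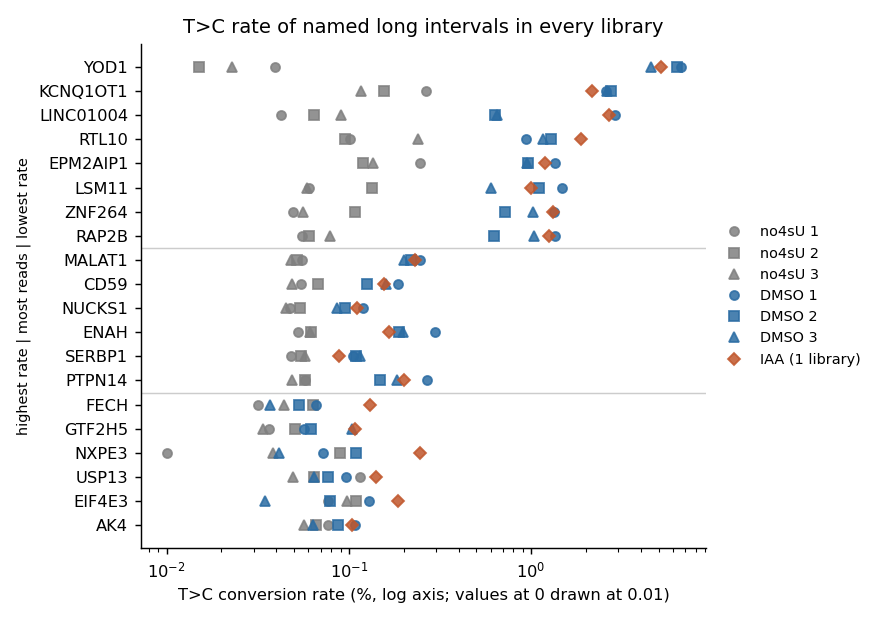
T>C rate in percent on a log axis (horizontal) of 20 named long intervals (vertical), 1 marker per library; from top to bottom, the 8 with the highest rate and the 6 with the lowest among members of 10 CPM or more enclose the 6 with the most reads. In the upper 8 genes the labelled libraries are clearly apart from those without 4sU. In most of the lowest 6 the DMSO libraries overlap with those without 4sU.

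The others of the 6 longest members had mean DMSO rates from 0.130% in ZNF704 to 0.470% in ONECUT2. The quartiles of all members were 0.171% and 0.390%. SH3TC2 with 22564 bases had a mean of 0.391% ± 0.243 (SD, n = 3) with DMSO and 4sU, on 77 to 101 reads. AAK1, a kinase of clathrin coats with 17877 bases, had 0.218% ± 0.0996, and LPP, a focal adhesion protein with 16196 bases, 0.284% ± 0.0447 (SD, n = 3 each). All 3 passed the test, with adjusted p of 0.0415, 0.0213 and 0.00768 by limma. ONECUT2 with 14578 bases and ZNF704 with 12918 bases, both transcription factors, missed it at 2.36 and 5.25 CPM (adjusted p = 0.101 and 0.813 by limma).

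By role, assigned from general knowledge after the members were known, transcription factors with zinc fingers had the highest median of the 10 groups. Their 21 members had a median DMSO rate of 0.485%, and 16 were higher with 4sU, where 64.1% of all members and 47.7% of all genes tested were. They included ZNF805 with 3.08%, ZKSCAN8 with 2.09%, the metal-responsive MTF1 with 0.997% and SP1 with 0.644%. Their median read level, 15.9 CPM, was also the lowest of the groups. The 35 other regulators of transcription and chromatin had a median of 0.355%, with 27 called, among them NFYA with 0.804% and the DNA dioxygenase TET3 with 0.722%.

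In the ubiquitin system the median of 35 members was 0.289% and 26 were called. MDM2, the ligase of p53, had 0.471%, 0.329% and 0.297% with DMSO and 4sU against 0.0509% to 0.0553%. In mRNA silencing, decay and RNA binding the median of 18 members was 0.270% and 14 were called, from LSM11 down to EIF4E3. TNRC6B, the scaffold of microRNA silencing, had 0.336%, 0.290% and 0.209% against 0.0336% to 0.0775% (adjusted p = 0.00681 by limma). CNOT6L, a deadenylase, had 0.233%, 0.253% and 0.298% against 0.0529% to 0.0745%, without overlap.

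In growth factor, kinase and phosphatase signalling 22 of 30 members were called, with a median of 0.277% and MAP3K9 at the top with 0.912%. The 6 members of the Hippo pathway and its TEAD partners were all called, with a median of 0.301%, at a median of 76.9 CPM without 4sU. Of all members at 50 CPM or more 76.8% were called, and of the shorter intervals 60.8%. TEAD1, the transcription factor that YAP binds, had 0.319%, 0.320% and 0.327% with DMSO and 4sU against 0.0586% to 0.0694% and the smallest spread of the 6. TAOK1, a kinase upstream of the Hippo pathway, had 0.469%, 0.317% and 0.480%. Of 5 members in TGF-beta and BMP signalling, 4 were called, among them SMAD4 with 0.338% and BMPR2 with 0.171%, and ACVR2B was not (adjusted p = 0.0635 by limma, at 5.22 CPM).

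Actin, adhesion and junction genes (18 members, median 0.215%), membrane trafficking (20 members, median 0.214%) and solute carriers and transport (14 members, median 0.170%) had the lowest medians, with 9, 10 and 7 members called. These 3 medians lay under the median of all 368 members, 0.265%. The counts of every role stand beside the 64.1% of all members and the 47.7% of all genes tested that were called. The groups differ in read level, with which the share called grew, and were not tested against each other.

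The counts of the gene lists stand beside the 47.7% of all genes tested and the 64.1% of members that were higher with 4sU. Of the lists, microRNA silencing had 16 measured genes, of which 2 were members (TNRC6B and CNOT6L) and 11 were higher with 4sU (68.8%). Cleavage and polyadenylation had 21 measured genes with 13 higher (61.9%), and nonsense-mediated decay 11 with 4 higher (36.4%), and neither list held a member. Of 26 measured signalling and growth regulators known for long 3' untranslated regions, 22 were higher (84.6%) and 13 were members, of which 11 were higher. CDK6, the cell cycle kinase, stood for this list with 0.245%, 0.195% and 0.168% against 0.0537% to 0.0621%, and CREB1, a transcription factor of cAMP signalling, with 0.243%, 0.363% and 0.293% against 0.0209% to 0.0784%.

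Relative to the bulk of genes, the read level of the long intervals hardly moved with 4sU. CPM is a share of a library, so amounts of RNA per cell were not measured. On CPM as deposited, the median log2 change of CPM + 1 was 0.03 for the members and 0.08 for the shorter intervals. After TMM, which scales libraries to the bulk of genes, it was 0.00 for the members and 0.04 for the shorter intervals (DMSO libraries against those without 4sU). The difference between these medians was 0.02, -0.04 and -0.09 in replicates 1, 2 and 3, and so smaller than its spread. Since CPM without 4sU chose the members, the calls are counts without support for a direction: 6 members (1.63%) were lower and 0 higher (limma on TMM-scaled values), where 1.59% of all 11496 genes tested were lower and 0 higher. Without replicate 1 of both groups 14 members (3.80%) were lower, and without replicate 2 or 3 it was 2 (0.543%), where the shares of all genes were 3.18%, 0.226% and 0.287%. DESeq2 called 14 members (3.80%) lower against 3.44% of all genes, and edgeR 6 (1.63%) against 1.52%, both with 0 members higher, and without a filter on low values limma called 0 in either direction. At an unadjusted p under 0.05, 36 members (9.78%) were lower and 1 (0.272%) higher, against 7.33% and 2.82% of all genes. In bulk libraries, fewer copies per cell and fewer cells with the RNA cannot be told apart.

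LINC01004 fell most, from 13.1, 13.9 and 20.4 CPM without 4sU to 1.88, 0.999 and 0.747 CPM with DMSO and 4sU, and 1.15 CPM with IAA (log2 change -3.24 ± 0.29 SE). KCNQ1OT1 went from 32.8, 34.2 and 30 to 9.02, 7.87 and 6.77 CPM, and was at 10.6 CPM with IAA (log2 change -2.00 ± 0.17 SE). In both, all labelled libraries lay far under all unlabelled ones. YOD1 had 19.8, 12.8 and 20.2 CPM without 4sU, 9.44, 6.91 and 6.82 CPM with DMSO and 4sU and 12.3 CPM with IAA, which lay between the groups. PRTG, a protein of the immunoglobulin superfamily, and the noncoding LOC100288637 were also called, at log2 changes of -1.38 and -1.71, and had 9 to 17 and 10 to 33 reads in the DMSO libraries. The noncoding members gave 4 of the 6 calls and had a median log2 change of -0.40 at a median of 5.53 CPM, against 0.00 for the coding members.

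The 5 members with the largest rise were FOXK1, NUCKS1, MCTS1, SH3PXD2A and CDK6, with log2 changes of 0.57, 0.56, 0.49, 0.42 and 0.41, and none passed the test. In FOXK1, NUCKS1 and CDK6, replicate 1 without 4sU was the lowest of the 6 libraries: NUCKS1 had 237, 467 and 556 CPM without 4sU and 597, 544 and 653 CPM with DMSO and 4sU, and CDK6 143, 247 and 291 against 255, 303 and 338 CPM. Members with a higher rate had a lower change of CPM (rho -0.49 over the members and -0.43 over the shorter intervals). Both measures use the DMSO libraries, so this is a description only.

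**Figure D5:**
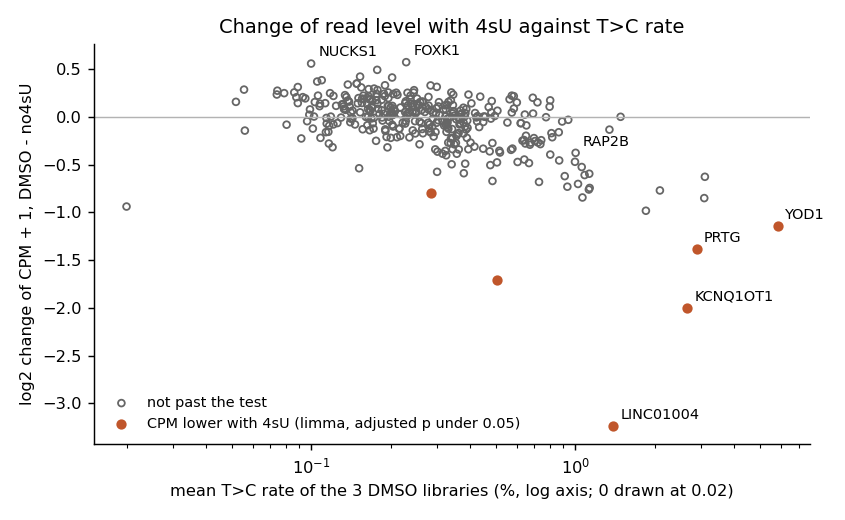
Log2 change of CPM + 1 between DMSO with 4sU and no 4sU (vertical axis) against the mean T>C rate of the DMSO libraries in percent on a log axis (horizontal), 1 point per long interval. Filled points are the 6 members called lower by limma, from -3.24 in LINC01004 upward; most other members lie close to 0.

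The last comparison set the IAA library beside the 3 DMSO libraries, to see whether newly made RNA of the long intervals changed after JUN degradation. With rates centred on each library's median, the median member lay 0.05 log2 units above the mean of the DMSO libraries and the median shorter interval 0.01 below it. The gap between these medians was 0.0558 log2 units. Taken for each DMSO library against the other 3 labelled libraries, the gap was 0.0194, -0.0371 and -0.0458. Before centring, the IAA rate lay within the DMSO range for 188 members, above it for 112 (30.4%) and below it for 68 (18.5%), and of all 10626 genes 28.7% lay above and 17.3% below. A member was counted where the centred IAA value exceeded or fell short of each DMSO value and differed by 1 log2 unit or more from the DMSO mean. By this rule 25 members (6.79%) were above and 29 (7.88%) below, against 9.03% and 9.08% of all 10626 genes. Set against the other 3 labelled libraries in the same way, the DMSO libraries gave 25 above and 22 below, 25 and 21, and 21 and 28. The count for IAA was thus like that of a DMSO replicate. For CPM, 0 members met the rule in either direction, where 0.113% of all genes were above and 0.0847% below.

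The members of 10 CPM or more that lay farthest from DMSO had 177 to 547 reads in the IAA library. KLHL24, an adaptor of a ubiquitin ligase, had 0.0973%, 0.0925% and 0.166% with DMSO and 0.900% with IAA. OTULIN, which cleaves linear ubiquitin chains, had 0.425%, 0.199% and 0.219% with DMSO and 0.912% with IAA. PTGR3 with 0.759% and PGM2L1 with 0.660% with IAA also lay above their DMSO values, of at most 0.386% and 0.395%. COBLL1 had 0.281%, 0.146% and 0.469% with DMSO and 0.0326% with IAA, and ZNF37BP, a pseudogene, 0.432%, 0.548% and 0.536% against 0.112%. KIAA1549 with 0.224% and PHC3, a Polycomb protein, with 0.115% lay below their DMSO values as well. With 1 library of IAA, these differences have no replicate check.

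In CPM, the highest IAA values relative to DMSO were those of YOD1, RBM33, ANKH and AFAP1, by 0.53, 0.42, 0.40 and 0.39 log2 units, and the lowest those of SLC7A2, ZNF264, EXOC5 and TANC2, by -0.63, -0.50, -0.49 and -0.48. RBM33 had 10.1, 8.08 and 9.16 CPM with DMSO and 13.4 CPM with IAA, and SLC7A2, an amino acid transporter, 10.3, 15.2 and 18.2 against 9.47 CPM. TEAD1 and TAOK1 had IAA rates of 0.276% and 0.390%, and the 6 Hippo members held 0 counted in either direction.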

How the data were processed

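The authors made SLAM-Seq libraries with the QuantSeq 3' FWD kit and processed the reads with the nf-core SLAM-Seq pipeline in Nextflow; the processing notes name hg19. The deposited T>C rate is a fraction (share of T positions read as C, background not subtracted) per RefSeq interval, printed here in percent. The deposited signal column, labelled CPM, held whole multiples of 1 read in 100% of values (tolerance 0.01 reads), which gave reads and library totals, though transcripts with the same interval carry the same reads in several rows. RefSeq identifiers were matched to names through the RefSeq gene table (97.7% of rows). Per-sample columns not used numbered 0.

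Members, lists and roles were chosen with earlier results of these data known. Rates were tested with limma (3.58.1, R 4.3.3; trended, robust variance) on log2(rate + 0.0005) for genes of at least 2 CPM over the libraries without 4sU, CPM with limma on log2(CPM + 1) after TMM for genes of at least 1 CPM over 6 libraries, and recovered reads with edgeR (4.0.16) and DESeq2 (1.42.0). Adjusted p-values are Benjamini-Hochberg over all genes tested, at 0.05. On simulated data for the rate test with 10626 genes, 200 of them changed 9-fold, 83.5% of these were recovered. Of the calls 15.2% were false, and 1.47% of calls with 10 CPM or more (7222 genes). In the data, 47.7% of genes were called higher, and the median log2 change of the members was 1.39. The simulated shares therefore do not carry over to the 236 members called. Same-numbered libraries deviated together in CPM (correlations 0.395, 0.326 and 0.389) but not in rate (0.0168, 0.00289 and 0.0077). Named genes were the 6 longest, the 6 with most reads, at 10 CPM or more the 8 highest and 6 lowest DMSO rates and the 4 highest and 4 lowest IAA differences outside the DMSO range, the 5 largest falls and rises of CPM, 3 genes on each side of the limits, and members of 4 fixed lists; others were named as examples of a role after their values were seen. Intervals were placed on GRCh37 by the length of GENCODE v44lift37 3' untranslated blocks, or of exons for noncoding transcripts. One sequence is not reported here.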

Additional observations from a re-analysis of the deposited data

How the results depend on the processing

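The count of 236 members with a higher rate went to 143 with no filter on low values (38.9% against 30.6% of the shorter intervals) and 24 with centred libraries, where only changes beyond the median gene are counted and the order turned (6.52% against 8.43%), and to between 84 and 104 without 1 replicate of each group, where fewer libraries are left; under the other alternatives it stayed between 191 (replicate block) and 242. The numbers do not pair the rates, so the block is only an alternative. The excess of 0.0516 percentage points over shorter intervals was 0.0212 against intervals of 1000 to 5000 bases and 0.0301 without CPM bands, and turned to -0.0197 with the mean in place of the median; without 1 replicate it was 0.0438 to 0.0588, and from 0.0410 to 0.0606 otherwise. The cause of the turned sign was not tested. The difference of the median CPM change kept its sign, from -0.0627 to -0.0109 without 1 replicate, and the replicate block, for numbers that pair the CPM, called the same 6 members lower. The count of 6 members with lower CPM was 14 with DESeq2, 0 with no filter and 2 to 14 without 1 replicate. The difference of the IAA library in rate, 0.0558 log2 units between long and shorter intervals, was 0.00411 to 0.0708 without 1 DMSO replicate, and in CPM -0.0695 to -0.0284. The 54 members with a distant IAA rate were 6.79% above and 7.88% below, against 9.03% and 9.08% of all 10626 genes. This count was 24 at 10 CPM or more, where 282 members were left, and 52 to 62 without 1 DMSO replicate. Shares of all genes are not given for these alternatives. Depth limits the 46 members with under 100 reads in a DMSO library, where a rate rests on few T positions.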
